A study of Mus musculus with 16 samples.

Results

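Members of the inflammasome and interleukin-1 (IL-1) pathway were followed in the hippocampus, and none passed the test across all genes in any genotype comparison. The 10 genes were Nlrp3, Pycard, Casp1, Casp4, Casp8, Gsdmd, Il1a, Il1b, Il18 and Il1rap, chosen by symbol from 49671 gene rows, and 9 of them, all but Casp4, were among the 16372 genes that passed the filter on low counts. Differences in single genes were present but did not pass the adjusted threshold. The inflammasome adaptor Pycard and the pore-forming protein Gsdmd had higher means in tau transgenic hippocampus with intact p16 than in wild type. The cytokine Il1b was lower there, with no overlap between libraries. The sensor Nlrp3 was lower in tau transgenic hippocampus without p16 than in tau transgenic hippocampus with p16, again with no overlap. Nlrp3 and Casp8 were higher without overlap in tau transgenic hippocampus with p16 than in wild type. Il1a was lower without overlap in p16 knockout hippocampus without the transgene than in wild type. Of all tested genes, 4.99% did not overlap between tau transgenic and wild type. The share was 4.07% for p16 loss with the transgene and 2.99% without it.

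The RNA came from hippocampus of 8-month-old female mice, in 4 groups with 4 libraries each. PS19_p16KO carries the PS19 tau transgene and the p16 knockout. PS19 carries the transgene with wild-type p16, p16KO carries the knockout without the transgene, and WT has neither. In PS19 mice a human tau with a disease mutation is expressed from the mouse prion protein promoter, and p16, which Cdkn2a encodes, restrains cell division and marks senescent cells. The labels limit neither allele to a cell type, and whole hippocampus was sequenced, so the cell type behind a level is not resolved. The labels do not say whether the 4 libraries of a group are 4 animals, and p-values therefore cover only the spread among these samples.

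An inflammasome is a protein platform that forms in the cytosol, mainly of macrophages and microglia, when a sensor such as NLRP3 meets a danger signal. The sensor recruits the adaptor ASC, the product of Pycard, which gathers and activates caspase-1. Caspase-1 cuts pro-IL-1β and pro-IL-18 into their active forms and cuts gasdermin D, whose fragment opens pores in the membrane. IL-1α and IL-1β signal through the IL-1 receptor and its accessory protein, encoded by Il1rap, to the kinases of the IRAK family and to NF-kB. Activation of the platform happens at the protein level and is not seen in RNA, whereas the supply of Nlrp3 and Il1b transcript is itself induced by NF-kB.

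Libraries held between 18485552 and 22311322 gene counts, and the unit of level is CPM, a count scaled to the library's total over gene rows. Cdkn2a, the targeted gene, was close to the detection limit, with 1, 1, 0 and 0 counts in PS19_p16KO, 8, 4, 1 and 5 in PS19, 1, 1, 1 and 0 in p16KO and 1, 1, 4 and 2 in WT, and the position of these reads relative to the deletion is unknown. Of 14 microglial and macrophage markers, 10 rose in PS19 against WT, and 6 fell in PS19_p16KO against PS19. Their summed level was 393 to 433 CPM in PS19_p16KO, 459 to 831 CPM in PS19, 373 to 440 CPM in p16KO and 334 to 376 CPM in WT. The homeostatic microglial genes on that list differed little in PS19 against WT, with fitted folds of 1.01 for Tmem119 and 0.992 for P2ry12. Astrocyte markers moved as well, with 1 of 6 (Gfap) higher in PS19 against WT and 2 of 6 lower in PS19_p16KO against PS19. Their summed level was 3817 to 4653 CPM in PS19_p16KO, 5158 to 7635 CPM in PS19, 4106 to 4787 CPM in p16KO and 4472 to 4608 CPM in WT, and their part in the members' levels was not tested. Ttr, which marks choroid plexus epithelium, reached 5181 CPM in PS19_p16KO library 3, 2987 CPM in p16KO library 4, 717 CPM in WT library 1 and 153 CPM in p16KO library 1, against 7.29 to 30.4 CPM in the other 12 libraries.

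**Figure D1:**
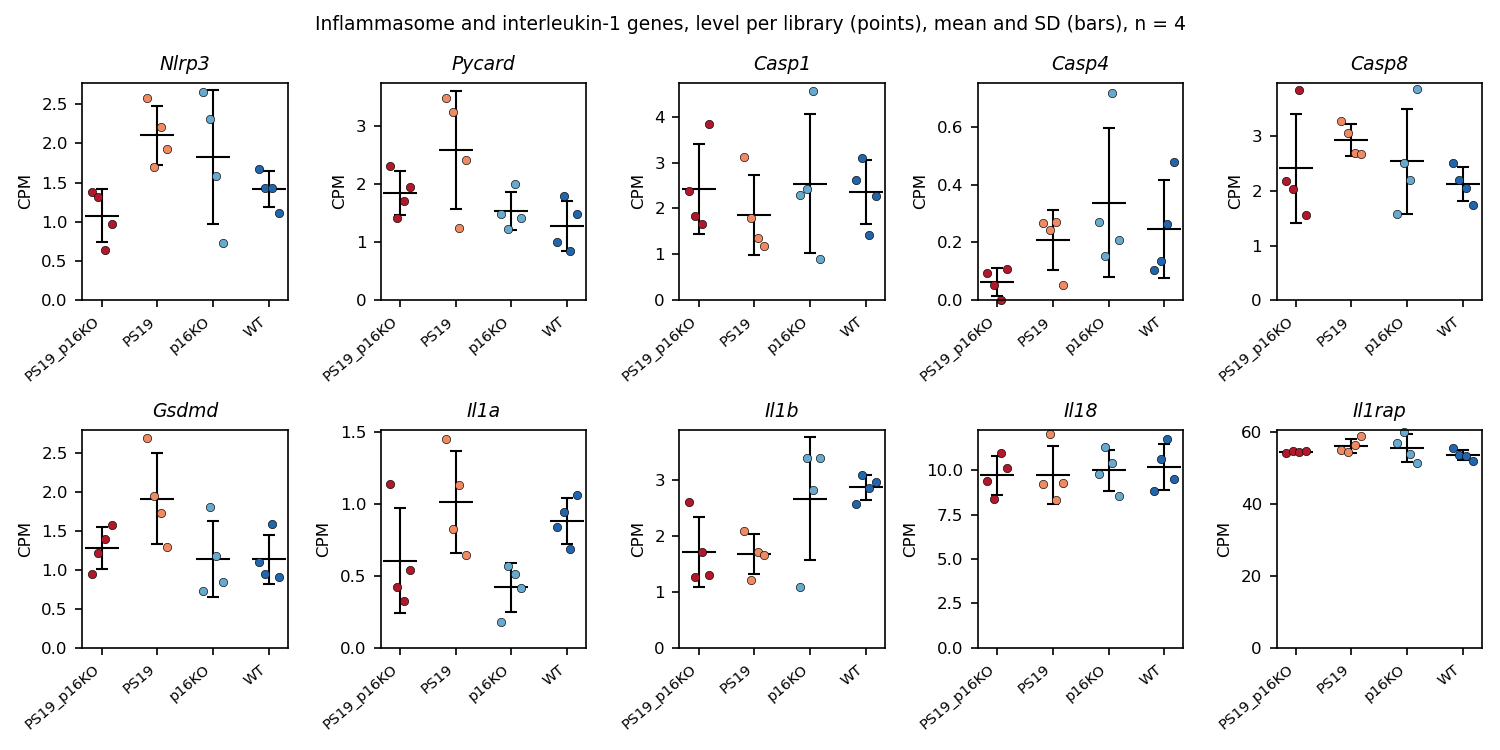
Level in CPM of the 10 genes in each library, by group, with 4 points per group and the group mean and SD as bars. Il1b in PS19 lay below all WT libraries, and Nlrp3 in PS19_p16KO lay below all PS19 libraries. Nlrp3 and Casp8 in PS19 lay above all WT libraries. Il1a in p16KO lay below all WT libraries, and Casp4 in PS19_p16KO lay below all p16KO libraries. Il1rap stayed between 51.3 and 60.2 CPM.

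The genes differed widely in level. Per kilobase of exon, Il18 was the most abundant with a mean of 9.62 CPM per kb over all libraries, followed by Il1rap with 4.84 CPM per kb. Casp1 had 1.53, Il1b 1.17 and Casp8 0.865 CPM per kb. Gsdmd had 0.574, Pycard 0.478, Nlrp3 0.395 and Il1a 0.370 CPM per kb, and Casp4 was last with 0.0577. Apart from Il18 and Il1rap, no gene exceeded 89 counts in a library, which limits the precision of their levels. In bulk RNA, fewer cells of a type and less RNA per cell cannot be told apart.

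To ask what the transgene did with p16 intact, PS19 was compared with WT. None of the 9 tested members passed the adjusted threshold of 0.05 (edgeR's quasi-likelihood test with Benjamini-Hochberg adjustment), where 1.61% of all tested genes did. At an unadjusted p under 0.05 there were 3 members of 9, against 9.57% of all genes, and DESeq2 called none. The libraries of PS19 and WT did not overlap for 3 members, Nlrp3 and Casp8 higher and Il1b lower, against 4.99% of all genes (3.52% higher and 1.47% lower). The median log2 fold change of the members was 0.19, against -0.01 over all genes.

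The adaptor came first by unadjusted p. Pycard (chromosome 7, 127989708 to 127993867, minus strand, GRCm38) had 3.49, 3.25, 1.24 and 2.41 CPM in PS19, against 0.996, 1.79, 0.847 and 1.49 CPM in WT. PS19 library 3 lay within the WT range, and the other 3 PS19 libraries exceeded every WT library. The fitted log2 fold change was 1.0 ± 0.30 (SE), a 2.01-fold difference with a 95% interval of 1.30 to 3.09, and edgeR's adjusted p was 0.122. Without PS19 library 3, which also had the lowest summed microglial markers of its group, Pycard passed with a log2 fold change of 1.23 and an adjusted p of 0.0119. Over all 14 alternatives its adjusted p ran from 0.0119 to 0.454. Pycard had 2.32, 1.42, 1.72 and 1.95 CPM in PS19_p16KO and 1.49, 1.23, 2.0 and 1.41 CPM in p16KO, which overlapped. The predicted gene Gm45205 overlaps it on the other strand, and whether counting used strand is not stated.

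Gsdmd (chromosome 15, 75862327 to 75867408, plus strand) encodes gasdermin D, the executioner of pyroptosis. It had 2.69, 1.94, 1.72 and 1.29 CPM in PS19, against 1.10, 0.941, 1.59 and 0.902 CPM in WT, and the groups overlapped. Its log2 fold change was 0.75 ± 0.30, a 1.68-fold difference with an interval of 1.09 to 2.59 (edgeR adjusted p = 0.363). The other groups were close to each other, with 1.28 CPM ± 0.266 (SD, n = 4) in PS19_p16KO, 1.13 CPM ± 0.484 in p16KO and 1.13 CPM ± 0.315 in WT.

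Il1b (chromosome 2, 129364570 to 129371139, minus strand) encodes IL-1β, the cytokine most closely tied to the NLRP3 inflammasome, and it was the only tested member with an unadjusted p under 0.05 that was lower in PS19 than in WT. Il1b had 2.10, 1.21, 1.72 and 1.66 CPM in PS19, against 2.57, 3.09, 2.86 and 2.97 CPM in WT. Every PS19 library lay below every WT library. The log2 fold change was -0.78 ± 0.30, a fold of 0.581 with an interval of 0.377 to 0.895 (edgeR adjusted p = 0.319), and it stayed between -0.92 and -0.65 over 14 alternatives, with adjusted p from 0.150 to 0.612. In PS19_p16KO the libraries held 2.61, 1.26, 1.72 and 1.30 CPM, against 1.08, 3.39, 2.82 and 3.40 CPM in p16KO. The means were 1.72 CPM ± 0.626 in PS19_p16KO and 2.67 CPM ± 1.09 in p16KO, and the groups overlapped through p16KO library 1, which lay below every PS19_p16KO library. The antisense gene Il1bos overlaps Il1b and held at most 6 counts in a library.

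Il1b had close neighbours in pattern. Over the 16 libraries its log2 CPM followed Acod1 with a Pearson r of 0.915, Cxcl2 with 0.809 and Armh4 with 0.803, a description across libraries that share group and depth. Acod1 encodes the enzyme that makes itaconate in activated macrophages, and it had 0.860, 0.194, 0.323 and 0.322 CPM in PS19, against 0.838, 0.627, 1.32 and 0.955 CPM in WT. PS19 library 1 lay within the WT range for Acod1. Cxcl2, a chemokine that attracts neutrophils, had 0.967, 0.631, 1.13 and 0.857 CPM in PS19, against 1.62, 1.43, 1.80 and 1.91 CPM in WT, with no overlap. In PS19_p16KO both genes, like Il1b, were highest in library 1, at 1.14 CPM for Acod1 and 1.85 CPM for Cxcl2. In p16KO both were lowest in library 1, at 0.270 CPM for Acod1 and 1.13 CPM for Cxcl2.

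Neutrophil markers were read beside Il1b. S100a9, a neutrophil gene chosen here after its values were seen, had 0.430, 0.243, 0.484 and 0.429 CPM in PS19, against 1.05, 0.807, 0.529 and 0.849 CPM in WT, without overlap. Its log2 fold change was -1.03 ± 0.40 (edgeR adjusted p = 0.340). S100a8, its partner in calprotectin, had 0.430, 0.146, 0.215 and 0.322 CPM in PS19, against 0.262, 0.628, 0.265 and 0.371 CPM in WT, and overlapped. Of 11 neutrophil markers only 3 passed the filter on low counts. Ly6g was at 0 in all 16 libraries, and Mmp8, Ngp, Camp and Ltf had at most 3 counts in any. The summed neutrophil list was 5.84 to 9.38 CPM in PS19_p16KO, 8.72 to 18.2 CPM in PS19, 6.98 to 8.29 CPM in p16KO and 7.91 to 8.96 CPM in WT, so that the list as a whole was not lower in PS19 than in WT. Its high values in PS19 came from Csf3r, which microglia also express. The part of blood cells in the Il1b difference was not tested.

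**Figure D2:**
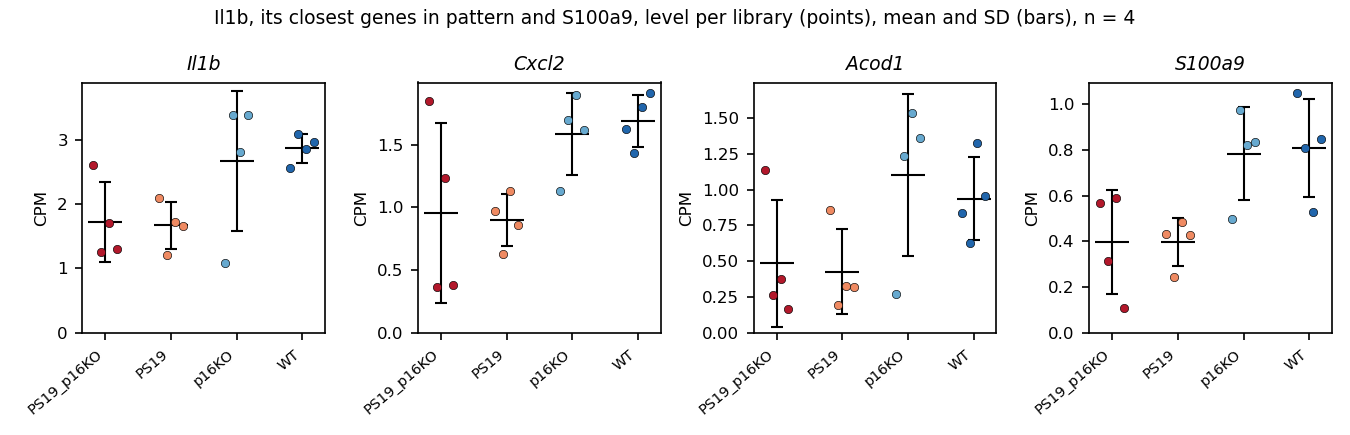
Level in CPM of Il1b, of Cxcl2 and Acod1, 2 of the 3 genes closest to it in pattern over the 16 libraries, and of S100a9, with 4 points per group and the group mean and SD as bars. For Il1b, Cxcl2 and S100a9 every PS19 library lay below every WT library, and for Acod1 the groups overlapped. Cxcl2 and Acod1 were chosen by likeness to Il1b over these same libraries, and S100a9 after its values were seen. Their likeness to Il1b is therefore partly a result of selection. S100a8, not shown, overlapped, and the summed neutrophil list was not lower in PS19 than in WT.

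The promoters of Il1b, of its neighbours in pattern Acod1 and Cxcl2, and of its sister gene Il1a are shown so that they can be compared in sequence. Each run is the 250 bases before the transcription start, read 5′ to 3′ on the gene's strand, from RefSeq on GRCm38.p6. The Il1b window is chr2:129371140-129371389 (minus strand), that of Il1a is chr2:129309973-129310222 (minus strand), that of Acod1 is chr14:103046762-103047011 (plus strand) and that of Cxcl2 is chr5:90903649-90903898 (plus strand). Capitals mark the TATA-like string TATAAA in Il1b, Il1a and Acod1 and the NF-kB-like string GGNNTTTCC, on either strand, in Cxcl2 and Acod1.
Il1b: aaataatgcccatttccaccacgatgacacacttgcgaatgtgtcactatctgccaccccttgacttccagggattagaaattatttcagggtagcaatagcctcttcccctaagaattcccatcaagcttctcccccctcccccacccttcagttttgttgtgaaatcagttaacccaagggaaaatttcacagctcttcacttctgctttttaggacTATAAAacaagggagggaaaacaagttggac
Il1a: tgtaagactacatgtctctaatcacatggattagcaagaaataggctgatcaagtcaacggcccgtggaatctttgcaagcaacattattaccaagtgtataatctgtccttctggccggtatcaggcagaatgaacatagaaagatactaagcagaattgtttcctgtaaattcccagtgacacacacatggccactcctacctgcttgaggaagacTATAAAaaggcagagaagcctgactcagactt
Acod1: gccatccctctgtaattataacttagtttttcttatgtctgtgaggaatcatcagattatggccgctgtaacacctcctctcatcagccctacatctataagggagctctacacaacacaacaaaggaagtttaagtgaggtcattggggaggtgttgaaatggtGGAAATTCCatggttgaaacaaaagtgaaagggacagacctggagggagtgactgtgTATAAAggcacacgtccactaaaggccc
Cxcl2: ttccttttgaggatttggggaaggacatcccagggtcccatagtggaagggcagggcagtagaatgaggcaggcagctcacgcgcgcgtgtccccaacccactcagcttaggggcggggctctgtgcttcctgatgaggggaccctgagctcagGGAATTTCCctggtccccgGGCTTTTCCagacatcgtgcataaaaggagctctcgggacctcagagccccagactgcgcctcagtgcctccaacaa
TATAAA stood 31 to 26 bases before the start in Il1b, 32 to 27 in Il1a and 28 to 23 in Acod1, and 12.37% of 32851 mouse promoters of this length held it on either strand. GGNNTTTCC occurred in Cxcl2 at 96 to 88 and at 77 to 69 bases before the start and on the opposite strand of Acod1 at 85 to 77, and 4.93% of promoters held it on either strand. No TATAAA match overlapped a GGNNTTTCC match in these windows. A promoter was found for 9 of the 10 members, all but Gsdmd. Besides Il1a and Il1b, only Il18 held TATAAA, on the opposite strand, and only Casp4 and Nlrp3 held GGNNTTTCC. The strings were chosen after matches of other strings, a longer form of the NF-kB-like string included, had been seen, so the matches are a description of these windows alone.

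The other cytokines did not share the lower level of Il1b in PS19 against WT. Il18 (chromosome 9, 50554827 to 50581840, plus strand), the second cytokine cut by caspase-1, had 9.24, 12.1, 8.34 and 9.27 CPM in PS19, against 8.85, 10.7, 11.8 and 9.49 CPM in WT. Its fold in PS19 against WT was 0.951 with an interval of 0.792 to 1.14, and its group means lay between 9.72 and 10.2 CPM in all 4 genotypes. Il18 overlaps Bco2 and Tex12 on the other strand. Il1a (chromosome 2, 129299610 to 129309972, minus strand), which encodes IL-1α, had 1.45, 0.825, 1.13 and 0.643 CPM in PS19, against 0.838, 0.941, 0.688 and 1.06 CPM in WT, and the groups overlapped. Within groups Il1a resembled Il1b in part. Both were highest in library 1 of PS19 and of PS19_p16KO (1.14 CPM for Il1a) and lowest in library 1 of p16KO (0.180 CPM for Il1a). In WT the lowest library was 3 for Il1a and 1 for Il1b.

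Il1rap (chromosome 16, 26581704 to 26730117, plus strand), the co-receptor shared by IL-1, IL-33 and IL-36 receptors and made by neurons as well as glia, was the steadiest member. It had 55.0, 54.4, 56.4 and 58.9 CPM in PS19, against 55.5, 53.7, 53.3 and 51.9 CPM in WT. The fold was 1.045 with an interval of 0.966 to 1.13. Il1rap averaged 54.5 CPM ± 0.312 in PS19_p16KO and 55.6 CPM ± 3.83 in p16KO (SD, n = 4 each).

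The caspases showed little that exceeded their spread. Casp1 (chromosome 9, 5298517 to 5307265, plus strand), the inflammasome protease, had 3.12, 1.80, 1.35 and 1.18 CPM in PS19, against 2.62, 3.09, 1.43 and 2.28 CPM in WT. The interval of its fold, 0.422 to 1.45 around 0.784, was wide. In p16KO it was more variable, from 0.888 to 4.56 CPM, with an SD of 1.52 CPM against 0.702 CPM in WT. Casp8 (chromosome 1, 58795374 to 58847503, plus strand), which links death receptors to apoptosis and can also process IL-1β, had 3.28, 3.06, 2.69 and 2.68 CPM in PS19, against 2.51, 2.20, 2.06 and 1.75 CPM in WT. Every PS19 library was above every WT library for Casp8, but the unadjusted p was not under 0.05.

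Casp4 (chromosome 9, 5308828 to 5336783, plus strand), the mouse caspase-11 that senses lipopolysaccharide inside the cell, was too low for the fit. It had 2, 1, 0 and 2 counts in PS19_p16KO, 5, 5, 5 and 1 in PS19, 6, 3, 14 and 4 in p16KO and 2, 3, 5 and 9 in WT. The lowest group was PS19_p16KO at 0.0638 CPM ± 0.0488, against 0.338 CPM ± 0.258 in p16KO (SD, n = 4 each). The exact two-sided permutation p of that pair was 0.0286, the smallest that 70 assignments allow, and 0.114 after adjustment over the 4 comparisons. Between PS19_p16KO and PS19, at 0.209 CPM ± 0.104, the exact permutation p was 0.0857 (n = 4 each). In the other comparisons it was 0.743 for PS19 against WT and 0.571 for p16KO against WT.

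The effect of p16 loss on the transgenic hippocampus was examined by comparing PS19_p16KO with PS19. Again 0 of 9 members passed the adjusted threshold, where 0.825% of all genes did, and DESeq2 called none. At an unadjusted p under 0.05 there was 1 member, Nlrp3, against 8.59% of all genes, and the same gene alone did not overlap between the groups, being lower, against 4.07% of all genes, 2.63% of them lower. The median log2 fold change of the members was -0.27, against 0.00 over all genes.

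Nlrp3 (chromosome 11, 59541568 to 59566956, plus strand) encodes the sensor of the best studied inflammasome. It had 29, 25, 12 and 18 counts in PS19_p16KO, against 48, 35, 41 and 36 in PS19, which is 1.37, 1.31, 0.643 and 0.974 CPM against 2.58, 1.70, 2.21 and 1.93 CPM. Every PS19_p16KO library was below every PS19 library. The log2 fold change was -0.95 ± 0.32, a fold of 0.519 with an interval of 0.326 to 0.824 (edgeR adjusted p = 0.257). Over 14 alternatives it ran from -1.09 to -0.76, with adjusted p from 0.171 to 0.526. In p16KO the range was wide, at 2.66, 2.31, 1.59 and 0.732 CPM, and in WT it was narrower, at 1.68, 1.43, 1.43 and 1.11 CPM. The lowest values of PS19_p16KO and p16KO were in library 3 and library 4, the richest in Ttr of those groups. WT library 1, the richest in Ttr of WT, was the highest of its group. Nlrp3 was also lower in PS19_p16KO than in p16KO, with overlap, at a log2 fold change of -0.75 ± 0.32 (adjusted p = 0.999). The difference between the transgene effects without and with p16, tested as an interaction, was -1.31 ± 0.45 on the log2 scale (adjusted p = 0.453). Without the 3 libraries richest in Ttr, these log2 values were -0.76 against PS19, -0.82 against p16KO and -1.47 in the interaction. Their edgeR adjusted p were 0.293, 0.999 and 0.283. In p16KO against WT the log2 fold change of Nlrp3 was 0.37, and 0.71 without those libraries (edgeR adjusted p = 0.999 and 0.696). The part of choroid plexus in Nlrp3 was not tested further. These comparisons share libraries.

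Casp8 was also sensitive to the choroid-rich libraries in PS19_p16KO against PS19. It had 2.18, 2.04, 3.86 and 1.57 CPM in PS19_p16KO, and the highest value was in library 3, which had the most Ttr of all 16. The highest p16KO value, 3.87 CPM among 1.58, 2.52, 2.21 and 3.87 CPM, was in library 4, second in Ttr. The log2 fold change of Casp8 in PS19_p16KO against PS19 was -0.27, and without the 3 libraries richest in Ttr it was -0.57 (edgeR adjusted p = 0.375, with adjusted p from 0.375 to 0.948 over 14 alternatives). The part of choroid plexus in Casp8 was not tested further. Pycard, Gsdmd and Il1a had lower means in PS19_p16KO than in PS19, with overlapping libraries and unadjusted p above 0.05.

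**Figure D3:**
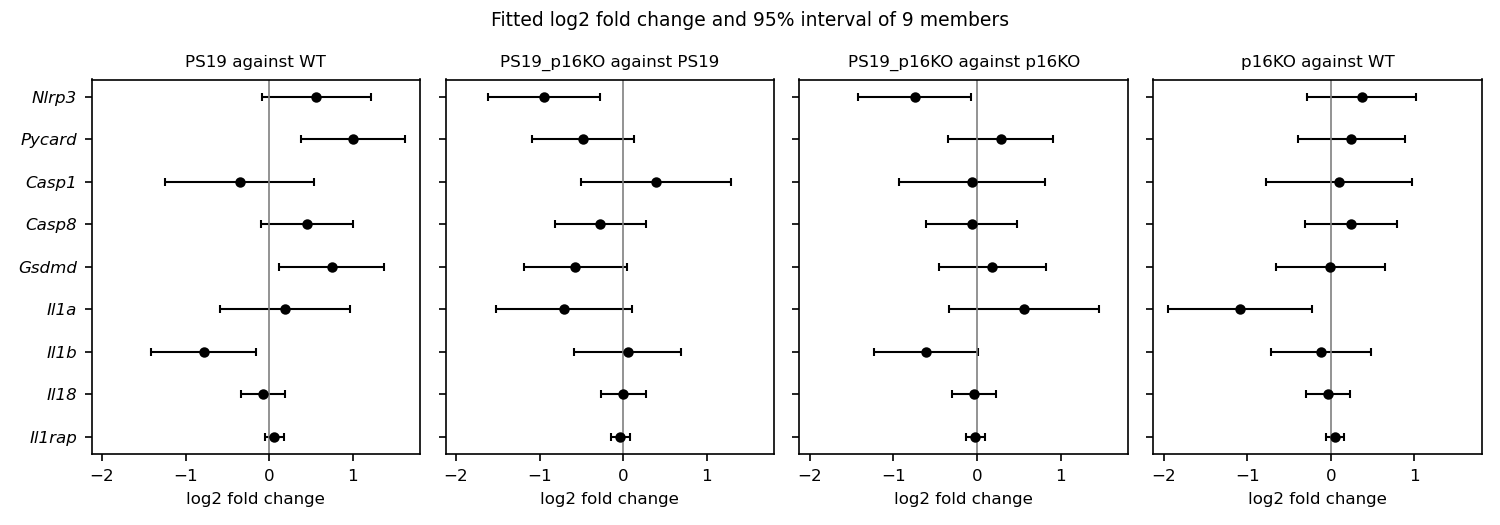
Fitted log2 fold change of 9 members (points) and its 95% interval (bars) in the 4 pairwise comparisons, with Casp4 left out because it did not pass the filter. Pycard, Gsdmd and Il1b in PS19 against WT, Nlrp3 in PS19_p16KO against PS19 and against p16KO, and Il1a in p16KO against WT have intervals that leave out 0 before adjustment. Il18 and Il1rap have the narrowest intervals.

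The effect of the transgene without p16 was examined in PS19_p16KO against p16KO, and the effect of p16 loss without the transgene in p16KO against WT. In PS19_p16KO against p16KO, 0 of 9 members passed by edgeR and 0 by DESeq2, where edgeR called 0.0183% of all genes, and 1 had an unadjusted p under 0.05 (Nlrp3, above) against 3.65% of all genes. None of the 9 tested members was free of overlap there, against 2.64% of all genes, while the counts of Casp4, below the filter, did not overlap. In p16KO against WT, 0 of 9 members passed by edgeR and 0 by DESeq2, where edgeR called 0% of all genes and 653 genes had an unadjusted p under 0.05. DESeq2 called 18 genes in that comparison.

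Il1a was the member with an unadjusted p under 0.05 in p16KO against WT, where 3.99% of all genes had one, and the member whose libraries did not overlap, against 2.99% of all genes (1.24% lower). It had 4, 11, 10 and 8 counts in p16KO, against 16, 21, 13 and 20 in WT, or 0.180, 0.565, 0.513 and 0.418 CPM against 0.838, 0.941, 0.688 and 1.06 CPM. This was a log2 fold change of -1.09 ± 0.41, a fold of 0.471 with an interval of 0.259 to 0.856 (edgeR adjusted p = 0.999). In PS19_p16KO it had 1.14, 0.419, 0.322 and 0.541 CPM, with library 1 apart from the others, and overlapped PS19. The predicted gene Gm14023 overlaps Il1a on the other strand. In the interaction 0 of 9 members passed by edgeR and 0 by DESeq2, where edgeR called 0.00611% of all genes, and Nlrp3 alone had an unadjusted p under 0.05, against 5.44% of all genes.

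Since 10 microglial markers rose in PS19 and the pathway is best known in these cells, each member was also set against them, as log2 CPM minus the mean log2 CPM of the 14 markers in the same library. This is a description, and it moves by construction with the 10 markers that rose. A gene with level CPM therefore comes out lower in PS19 on this scale. The share of all genes without overlap on this scale was not tested. In PS19 minus WT, Pycard differed by 0.07 ± 0.28 (SE), Gsdmd by -0.16 ± 0.23 and Nlrp3 by -0.31 ± 0.22, and the groups overlapped for each of these inflammasome genes. Il1b differed by -1.61 ± 0.24 and Casp1 by -1.22 ± 0.28, with no overlap between the groups. In CPM, Casp1 overlapped between PS19 and WT, whereas Il1b did not. Il18 differed by -0.92 ± 0.19 and Il1rap by -0.78 ± 0.20, also with no overlap, while their CPM hardly differed. Il1a differed by -0.71 ± 0.29 and Casp8 by -0.40 ± 0.15, with overlap. In PS19_p16KO minus PS19, Casp1 differed by 1.03 ± 0.33, Il18 by 0.65 ± 0.18 and Il1rap by 0.60 ± 0.21, without overlap, and Nlrp3 by -0.30 ± 0.32 with overlap. In CPM, Casp1, Il18 and Il1rap overlapped between PS19_p16KO and PS19.

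**Figure D4:**
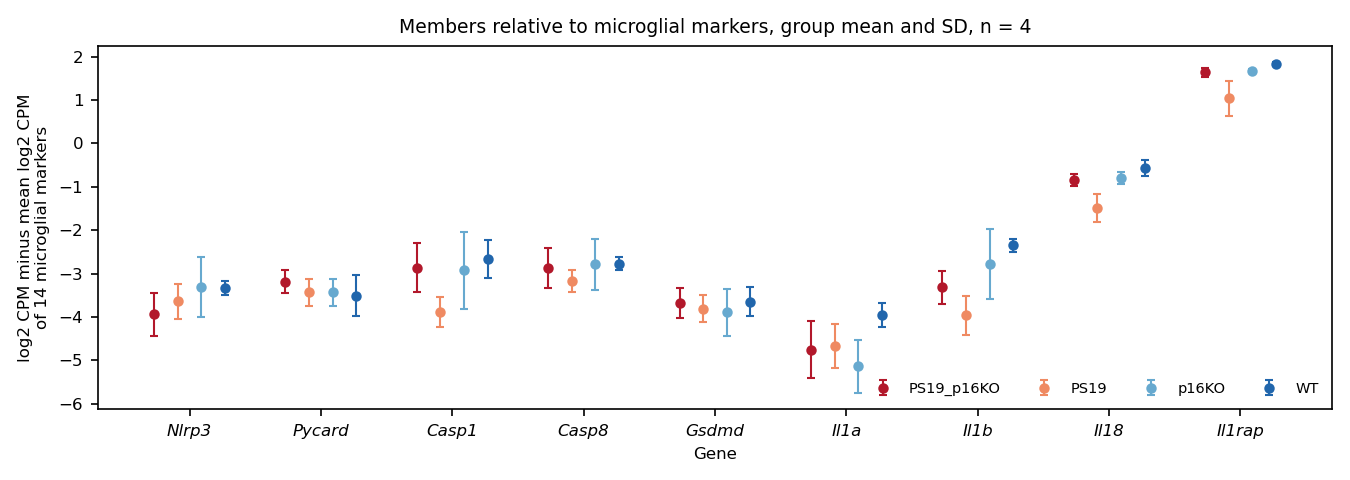
Log2 CPM of 9 members minus the mean log2 CPM of 14 microglial markers, as group mean and SD over 4 libraries, with groups in colour. Il1b, Casp1, Il18 and Il1rap were lower against the markers in PS19 than in WT, with no overlap. Of the 14 markers 10 rose in PS19, so a gene with level CPM is lower here by construction. In CPM, Casp1, Il18 and Il1rap overlapped between PS19 and WT. Il1a, Casp8 and Nlrp3 were lower with overlap, and Pycard and Gsdmd differed least.

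The wider pathway was read from 5 lists, beside the 1.61% of all tested genes called in PS19 against WT and 0.825% in PS19_p16KO against PS19. Of sensors and activators 13 of 20 listed genes were tested, and 1, Naip5, rose in PS19 against WT. Of caspases and executioners 12 of 15 were tested and none passed in either direction. Of receptors, decoys and ligands 9 of 17 were tested, and Il1rl2 rose. All 20 adaptors and kinases were tested, and Irak4 rose. Of NF-kB targets of IL-1, 9 of 16 were tested, and Cxcl10 rose. At an unadjusted p under 0.05, 6 of the 13 tested sensors were higher in PS19 against WT, against 9.57% of all genes in either direction. In PS19_p16KO against PS19, 5 of the 13 were lower, against 8.59% of all genes. For the caspases, receptors, adaptors and NF-kB targets the counts in either direction were 0, 2, 4 and 3 in PS19 against WT. They were 0, 2, 3 and 2 in PS19_p16KO against PS19. In PS19_p16KO against PS19 the only listed gene that passed by edgeR was Cxcl10, which fell, and no listed gene passed by edgeR in PS19_p16KO against p16KO, in p16KO against WT or in the interaction. The median log2 fold change in PS19 against WT was 0.12 for the sensors, 0.05 for the caspases, 0.10 for the receptors, 0.03 for the adaptors and 0.03 for the NF-kB targets, against -0.01 over all genes.

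Irak4 is the kinase that MyD88 recruits first at IL-1 and Toll-like receptors. It had 4.19, 3.30, 3.93 and 3.21 CPM in PS19, against 2.15, 1.66, 1.96 and 2.17 CPM in WT, with no overlap, and a log2 fold change of 0.88 ± 0.21 (edgeR adjusted p = 0.0384). The call held in 4 of 14 alternatives, with adjusted p from 0.0122 to 0.166, and without the 3 libraries richest in Ttr the log2 fold change was as large, at 0.91 (adjusted p = 0.0529). In PS19_p16KO Irak4 had 1.66, 2.10, 2.31 and 2.27 CPM, below every PS19 library, at a log2 fold change of -0.80 ± 0.21 against PS19. This did not pass by edgeR (adjusted p = 0.0913) but passed by DESeq2 (adjusted p = 0.0338), the only call among 14 alternatives, whose adjusted p reached 0.286. Relative to the microglial markers, Irak4 in PS19 minus WT differed by 0.00 ± 0.23 (SE) on the log2 scale, with overlap.

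Cxcl10, an interferon- and NF-kB-induced chemokine, had 1.04, 0.577, 0.965 and 0.433 CPM in PS19_p16KO, against 3.06, 2.09, 2.42 and 1.39 CPM in PS19. Every PS19_p16KO library was below every PS19 library, and the log2 fold change was -1.55 ± 0.36 (edgeR adjusted p = 0.0458). In WT it had 0.576, 1.17, 0.529 and 0.583 CPM, and the rise in PS19 against WT was 1.62 ± 0.36 on the log2 scale (adjusted p = 0.0212). The fall held in 5 of 14 alternatives, with adjusted p from 0.00944 to 0.194, and without the 3 libraries richest in Ttr the log2 fold change was as large, at -1.66 (adjusted p = 0.0550). The rise held in 8 of 14, with adjusted p from 0.00387 to 0.122. Relative to the microglial markers Cxcl10 differed by -0.83 ± 0.32 in PS19_p16KO minus PS19 and by 0.68 ± 0.32 in PS19 minus WT, both with overlap.

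Il1rl2, the receptor of IL-36 cytokines, had 1.67, 1.70, 0.377 and 0.911 CPM in PS19, against 0.314, 0.179, 0.317 and 0.212 CPM in WT, with no overlap although PS19 library 3 was close to WT. The log2 fold change was 2.17 ± 0.45, a 4.49-fold difference (edgeR adjusted p = 0.0118), and the call held in 10 of 13 alternatives with adjusted p from 0.000609 to 0.0685. Il1rl2 had 0.495, 0.771, 0.667 and 0.732 CPM in p16KO, above every WT library, at 1.36 ± 0.47 (adjusted p = 0.999). In PS19_p16KO it had 0.616, 0.524, 0.214 and 0.595 CPM, which overlapped PS19. The log2 fold change against PS19 was -1.23 ± 0.41 (edgeR adjusted p = 0.234). The interaction was -2.59 ± 0.62 (edgeR adjusted p = 0.150). It passed in 1 of 21 alternatives, the one without PS19 library 3 (adjusted p = 0.00788). Against the microglial markers its difference in PS19 minus WT was 0.81 ± 0.31, with overlap.

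Naip5, a receptor for bacterial flagellin that feeds the NLRC4 inflammasome, had 1.34, 1.41, 0.646 and 0.965 CPM in PS19, against 0.419, 0.403, 0.317 and 0.424 CPM in WT, without overlap. Naip5 rose by 1.46 ± 0.31 on the log2 scale, a 2.75-fold difference (edgeR adjusted p = 0.0137), and the call held in 9 of 14 alternatives with adjusted p from 0.00309 to 0.0782. In PS19_p16KO it had 0.948, 0.734, 0.643 and 0.649 CPM, which overlapped PS19, at -0.54 ± 0.28 against PS19 (edgeR adjusted p = 0.647). In p16KO it had 0.631, 0.668, 0.513 and 0.523 CPM, above every WT library. Against the microglial markers the difference of Naip5 in PS19 minus WT was 0.38 ± 0.12, without overlap. Naip5 has near-identical copies in the mouse genome, so its reads may be shared with them and its level is uncertain.

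**Figure D5:**
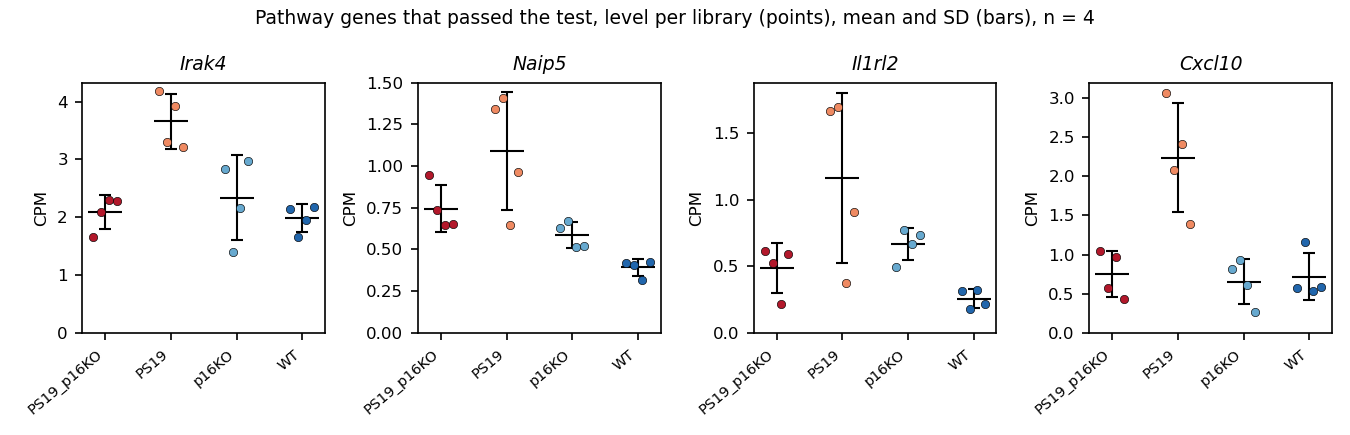
Level in CPM of Irak4, Naip5, Il1rl2 and Cxcl10, the genes of the wider pathway lists that passed the test in PS19 against WT, with 4 points per group and the group mean and SD as bars. All PS19 libraries lay above all WT libraries for each of the 4 genes.

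The genes closest in pattern to the other members, by Pearson r of log2 CPM over the 16 libraries, are named here as a description. For Pycard they were Slc20a1 at 0.870, Samsn1 at 0.863 and Fermt3 at 0.845. For Gsdmd they were Cep63 at 0.835, Slc22a4 at 0.822 and Cd86 at 0.794, and for Nlrp3 Tmc3 at 0.845, Tmem202 at 0.804 and Acsl3 at 0.795. Samsn1 and Fermt3, named for Pycard, and Cd86, named for Gsdmd, are leukocyte genes, and none of them was among the genes named for Nlrp3. The cell type of the named genes was not tested. Casp1 was closest to Fhod3 at 0.943, Nova1 at 0.897 and Tmem44 at 0.844, and Casp8 to Tns1 at 0.884, Tspo at 0.882 and Tor4a at 0.879. Il1a was closest to Kndc1 at 0.864, Rbm46 at 0.809 and Rsad2 at 0.806. Il18 was closest to Zfp946 at 0.863, Apip at 0.819 and Pik3r6 at 0.802, and Il1rap to Jdp2 at 0.823, Dirc2 at 0.807 and Ip6k2 at 0.789. With this many genes searched over 16 libraries, values of this size describe the libraries and nothing more.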

How the data were processed

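The authors deposited raw counts per gene for 16 hippocampal libraries, and no other file was used. The build was GRCm38, and the tools named are STAR 2.5.2b, Trimmomatic 0.36, Subread 1.5.2 with featureCounts, and DESeq2, per the submitters' processing notes, which give no role or order. Neither the strand setting nor the annotation of the counting is stated there. Overlapping genes may therefore share reads. Gene symbols came by Ensembl identifier from GENCODE M21. The 92 rows of ERCC spike-ins, 0.574% to 1.06% of counts per library, were left out of totals and tests.

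Counts were tested with edgeR 4.0.16 in R 4.3.3: filterByExpr with a minimum count of 10, TMM scaling, all 16 libraries in a single robust quasi-likelihood fit with a mean per group, and Benjamini-Hochberg adjustment over 16372 genes with a threshold of 0.05. Levels are CPM over gene rows without TMM scaling; with it, group means changed by a ratio of 0.9947 to 1.0078. Log2 values relative to markers and for the correlations used a prior count of 2. Casp4, below the filter, was compared with exact permutation tests over 70 assignments. Members were given fold changes where their unadjusted p was under 0.05, genes of the wider lists where they passed by edgeR, and for each member the 3 most similar genes by Pearson r. Chosen after their values were seen were the folds of Il18, Il1rap and Casp1 in PS19 against WT, of Casp8, Irak4, Il1rl2 and Naip5 in PS19_p16KO against PS19, of Nlrp3 and Il1rl2 in p16KO against WT, of Il1rl2 in the interaction, and the marker genes named. The members and lists were chosen with earlier results of these data known. The replicate numbers of the titles were not taken to pair libraries, since the deviations of same-numbered libraries correlated with either sign. The fit was tested on simulated data before use. Alternatives were RLE scaling, DESeq2 1.42.0, no filter, only the compared groups in the fit, the replicate number as a block, leaving out each library in turn, and omission of the 3 libraries with the most Ttr, which was added after the data were seen. With 4 libraries a group and few counts per gene, precision was limited, and p-values cover the spread between these libraries only.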

Additional observations from a re-analysis of the deposited data

Results flagged for a closer look

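Casp4 in PS19 library 4 stood apart from its group. It had 0.0536 CPM, from 1 count, while the other 3 PS19 libraries lay between 0.2427 and 0.2691 CPM. Its gap to the nearest library was 0.877 of the group's whole range, above Dixon's 95% critical value for 4 libraries. It was the only group flagged of 40 examined, and chance flags about 1 in 20.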

How the results depend on the processing

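No member passed in any of the 5 comparisons under RLE scaling, DESeq2, no filter, the replicate block or without the 3 libraries richest in Ttr, the last chosen after seeing the data, nor in the 4 pairwise comparisons with only the compared groups in the fit. Leaving out each library in turn gave 0 to 1 members for PS19 against WT, with Pycard called without PS19 library 3, and 0 in the other comparisons. The counts over all genes were less stable, and their cause was not tested. For PS19 against WT (264 genes) only the compared groups gave 70, and leaving out libraries gave 124 to 438. For PS19_p16KO against PS19 (135 genes) DESeq2 gave 269, only the compared groups gave 8, omission of the Ttr-rich libraries gave 62, and leaving out libraries gave 29 to 347. For PS19_p16KO against p16KO (3 genes) DESeq2 gave 6 and leaving out libraries gave 2 to 5. For p16KO against WT (0 genes) DESeq2 gave 18, no filter 4, only the compared groups 9, omission of the Ttr-rich libraries 7, and leaving out libraries 0 to 2. For the interaction (1 gene) RLE scaling gave 6, DESeq2 84, no filter 20, and leaving out libraries 1 to 160. The PS19 library 3 accounts for the highest leave-out counts in PS19 against WT, PS19_p16KO against PS19 and the interaction. With the replicate number as a block, the pairing gave 238, 134, 4, 0 and 5 genes in the 5 comparisons. Same-numbered libraries correlated from -0.388 to 0.223 in their deviations from group means, with 6 of 24 pairs over 0.1. The own number gave the best correlation in 15 of 48 cases (a library against another group). These values cannot settle whether same-numbered libraries share more than a number, and other groupings of the libraries were not tested. Of the 10 members, 8 had at most 89 counts per library, which limits their precision.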
